A study of Mus musculus with 12 samples.

Results

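A set of 9 genes that encode RNA-binding regulators of translation in male germ cells was followed in testes of postnatal day 16 (P16) mice with and without Mael. The genes were Dazl, Boll, Ybx2, Cpeb1, Pum2, Ddx25, Celf1, Fxr1 and Elavl1. They were taken by symbol, and all 9 were found among the 20620 gene rows of the deposited counts. Mael encodes Maelstrom, a germ cell protein required to silence transposons by the piRNA pathway. C57BL/6 testes of heterozygous Mael+/- animals and of homozygous Mael-/- mutants were compared, with 3 extracts per genotype. Heterozygotes served as controls and also carry a mutant allele. Each extract gave an RNA library, from total RNA depleted of ribosomal RNA, and a ribosome footprint library, from the pieces of mRNA that ribosomes shield from a nuclease after cycloheximide treatment, so that 12 libraries in 4 groups of 3 were analysed. The testis is whole, and at P16 the first wave of spermatogenesis has reached meiosis but not the spermatid stage. In such bulk samples fewer cells of a type and less RNA per cell cannot be told apart.

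Germ cells store many mRNAs long before they make the protein. As transcription stops when spermatid chromatin is packed, the timing of protein synthesis passes to proteins that hold, activate or degrade stored mRNAs. Most of them read short sequences in the 3′ untranslated region (3′ UTR) and act on the poly(A) tail or on the recruitment of ribosomes. Dazl and Boll belong to the DAZ family and promote translation of meiotic transcripts. Cpeb1 binds the cytoplasmic polyadenylation element and controls tail length. Pum2 is a Pumilio repressor that works with Nanos proteins and deadenylases. Ybx2, also called MSY2, coats and stores mRNAs in spermatocytes and spermatids. Ddx25, also called GRTH, is an RNA helicase that exports and translates spermatid transcripts. Celf1, Fxr1 and Elavl1 are more widely expressed: Celf1 binds GU-rich elements, Fxr1 is a relative of the fragile X protein, and Elavl1, also called HuR, stabilizes mRNAs with AU-rich elements.

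Because these proteins act through 3′ UTR elements, the members' own 3′ UTRs were searched on the sense strand for the letters TGTANATA, the Pumilio element, and TTTTAT, the core of the cytoplasmic polyadenylation element. Genes, sequences and coordinates are those of RefSeq on GRCm38.p6, for 1 transcript per gene. The Pumilio letters occurred 3 times, in Pum2 and Cpeb1 only. All 3 are shown because they are matches to the element of 1 member in the 3′ UTR of a member. They lie on chromosome 12 from 8750165 to 8750172 and from 8750418 to 8750425 (plus strand, Pum2) and on chromosome 7 from 81347554 to 81347561 (minus strand, Cpeb1). Capitals mark the element within 8 flanking bases on each side.
Pum2, first: tatagagaTGTATATAgaattata
Pum2, second: tacagaatTGTATATActtataat
Cpeb1: gcagctgcTGTATATAgttttaaa

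The polyadenylation element occurred 23 times in 6 members. Elavl1 held 7, Dazl and Pum2 5 each, Celf1 3, Cpeb1 2 and Ybx2 1. None was found in the transcript searched of Boll, Ddx25 or Fxr1, whose 3′ UTRs are 95, 150 and 258 bases long. Boll has 5 annotated transcripts and Fxr1 3, and the others were not searched. The element is best known close to the 3′ end, and 2 of the 6 members with a 3′ UTR of at least 300 bases held it within the last 300, Ybx2 and Elavl1. Among 14392 genes with such a window, 29.5% held it, and 10% held the Pumilio letters, which no member had there. The Ybx2 copy, the matches in Cpeb1's own 3′ UTR and the last copy in Dazl are shown with the element in capitals. The Ybx2 copy lies on chromosome 11 from 69941544 to 69941549 (plus strand), 54 bases from the 3′ end. Those of Cpeb1 lie on chromosome 7 from 81347598 to 81347603 and from 81347344 to 81347349 (minus strand), and that of Dazl on chromosome 17 from 50279764 to 50279769 (minus strand).
Ybx2: tgaagccaTTTTATgaactgtc
Cpeb1, first: aaaaattaTTTTATttaaaact
Cpeb1, second: cttacaacTTTTATttgacgaa
Dazl, last: caaaattcTTTTATgtcaccaa
These are matches of letters, not measured binding sites.

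Y-box proteins such as Ybx2 are named for the promoter sequence ATTGG, the reverse complement of the CCAAT box. The 9 genes have 13 promoter windows in RefSeq, each from 250 bases before to 50 after a start site. On both strands together, 5 of the 13 held CCAAT or ATTGG, beside 37.4% of 32851 promoters. The windows of the 2 members whose promoters carry ATTGG and whose values are described most fully here are printed, with those letters in capitals. That of Ybx2 spans chr11:69935649-69935948 (plus strand) and that of Dazl chr17:50293571-50293870 (minus strand).
Ybx2: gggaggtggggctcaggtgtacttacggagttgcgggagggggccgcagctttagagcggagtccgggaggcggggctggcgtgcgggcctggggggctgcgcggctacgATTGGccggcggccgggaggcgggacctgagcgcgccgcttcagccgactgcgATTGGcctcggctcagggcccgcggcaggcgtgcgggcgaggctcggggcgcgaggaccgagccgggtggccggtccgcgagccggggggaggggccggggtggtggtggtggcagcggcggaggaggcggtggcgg
Dazl: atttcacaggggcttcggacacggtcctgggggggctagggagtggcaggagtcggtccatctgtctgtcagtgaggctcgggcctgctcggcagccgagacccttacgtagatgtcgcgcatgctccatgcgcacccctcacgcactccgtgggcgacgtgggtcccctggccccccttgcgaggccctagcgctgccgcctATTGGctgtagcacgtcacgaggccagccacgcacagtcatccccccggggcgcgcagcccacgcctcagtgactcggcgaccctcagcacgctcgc
All 13 windows held more CpG than the median promoter, 13 to 44 each against 7, and none held the letters TGACGTCA, which 1.79% of promoters hold.

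RNA libraries held 13697267 to 27462358 counts over genes, and footprint libraries 7609932 to 13233565. The members had between 146 and 21373 counts in a library. The lowest counts were those of Ybx2 in Mael-/- footprints, whose spread between extracts (CV 3.72%) was below counting error. Mael itself was at 144 to 219 CPM, counts per 1000000 after scaling, in heterozygous RNA and had 0 to 2 counts per library in Mael-/- RNA, and 0 to 7 counts in Mael-/- footprints. The first heterozygous extract stood apart. Listed markers of pachytene spermatocytes, the mid-meiotic cells, summed to 767 CPM in its RNA, 288 to 308 CPM in the other heterozygous RNA libraries and 235 to 267 CPM in Mael-/- RNA. Their summed footprints were 896 CPM in that extract, 268 to 321 CPM in the other heterozygous extracts and 232 to 276 CPM in Mael-/-. In RNA 8 of the 9 pachytene markers, and in footprints 7, were highest in this extract, and all 9 had counts in every library. Of 7 early meiotic prophase markers, 5 were highest there in both assays, with an RNA sum of 928 CPM against 538 to 774 CPM in the other 5 libraries. None of the 6 spermatogonial markers was highest there, with a sum of 699 CPM among 658 to 825 CPM in heterozygous RNA and 685 to 733 CPM in Mael-/- RNA. Sertoli cell markers summed to 1531 CPM in this extract and to 1546 to 1895 CPM in the other RNA libraries. Their footprints were lower there, at 2208 CPM against 2816 to 3279 CPM in the other extracts. The 2 peritubular myoid markers summed to 790 to 825 CPM in Mael+/- RNA and to 882 to 931 CPM in Mael-/- RNA, without overlap, and in footprints to 1046 to 1278 and 1258 to 1546 CPM, which overlapped. Of all genes tested in RNA, 5.23% had every Mael-/- library above every Mael+/- library. Neither myoid marker was among the genes called in the comparison of genotypes below. Macrophage markers summed to 95.2 to 151 CPM in Mael+/- RNA and 136 to 152 CPM in Mael-/- RNA, and Leydig cell markers to 324 to 539 and 272 to 528 CPM. The part of these markers in the member values was not tested. The 7 round spermatid markers summed to 6.12 to 8.28 CPM in Mael+/- RNA and 6.64 to 7.71 CPM in Mael-/- RNA. Most of this was Spaca1, at 4.86 to 6.85 RNA CPM. Of the same list, Prm1 and Tnp2 had 0 counts in every library, which allows up to 0.218 CPM in RNA and 0.388 CPM in footprints (3 counts per library, counting error only). The fitted differences of the members between genotypes are therefore given with and without the first heterozygous extract. Those of other genes, and levels and ratios per gene, are over all extracts unless stated.

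The members covered a wide range of levels, and Dazl led in both assays. Levels were compared between genes per length, as CPM per kilobase of exon for RNA and per kilobase of coding sequence for footprints, over the 6 libraries of an assay. Dazl RNA was at 219 ± 49.9 CPM per kb (SD, n = 6) and Fxr1 RNA at 102 ± 9.41. A middle group followed, with Ddx25 at 33.4 ± 7.87, Pum2 at 31.3 ± 3.94, Celf1 at 30.7 ± 2.36 and Elavl1 at 25.7 ± 4.34 CPM per kb. The lowest were Cpeb1 at 15.1 ± 3.03, Ybx2 at 14.6 ± 13.2 and Boll at 14.3 ± 3.94 CPM per kb. Dazl, Fxr1 and the middle group did not overlap, nor did Elavl1 and Cpeb1, whereas neighbours within the middle and the lowest group overlapped. Ybx2 stood above Boll in 1 of 6 RNA libraries, the first heterozygous extract, and its higher mean rests on that library.

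Footprint density placed Elavl1 higher. Dazl was at 1044 ± 187 footprint CPM per coding kb, Elavl1 at 208 ± 24.3, Fxr1 at 134 ± 18.0 and Celf1 at 129 ± 7.91. Pum2 followed at 74.1 ± 3.52, Boll at 54.9 ± 18.3, Cpeb1 at 37.5 ± 4.03, Ddx25 at 37.0 ± 9.14 and Ybx2 at 28.6 ± 23.5 footprint CPM per kb. Dazl exceeded Elavl1, and Elavl1 exceeded Fxr1, in 6 of 6 libraries without overlap. Fxr1 and Celf1 overlapped, and so did each pair of neighbours from Pum2 down to Ybx2.

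Dazl, which is required for germ cells to enter and pass through meiosis, gave 926, 522 and 586 CPM in the RNA of heterozygous extracts 1, 2 and 3 and 633, 676 and 543 CPM in Mael-/- extracts 1, 2 and 3. Its footprints were 1277, 868 and 898 CPM in Mael+/- and 882, 868 and 828 CPM in Mael-/-. The genotypes overlapped in both assays, and only the first heterozygous extract lay clearly above the rest. Boll, the ancestral member of the DAZ family, gave 87.6, 46.6 and 48.1 RNA CPM in Mael+/- and 53.2, 55.1 and 48.4 in Mael-/-. Its footprints were 97.2, 47.9 and 44.3 CPM in Mael+/- and 55.9, 54.7 and 50.8 CPM in Mael-/-. Here too the genotypes overlapped. Without the first extract every Mael-/- library had more Boll RNA and more Boll footprints than either remaining heterozygote, in RNA by as little as 48.4 against 48.1 CPM. This leaves fewer heterozygotes than mutants, and the share of all genes split this way was not computed.

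Ybx2 differed most between extracts. Its RNA was at 70.7, 16.6 and 17.2 CPM in heterozygous extracts 1, 2 and 3 and at 15.9, 15.5 and 13.5 CPM in Mael-/- extracts. Ybx2 footprints were at 85.4, 26.3 and 27.3 CPM in Mael+/- and at 17.9, 18.7 and 17.3 CPM in Mael-/-. The genotypes did not overlap in either assay. In RNA the gap between the lowest heterozygote and the highest mutant was small beside the excess of the first extract. In footprints the other heterozygous extracts also stood clear of the mutants.

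Ddx25 RNA was at 81.3, 57.4 and 50.9 CPM in Mael+/- and at 43.9, 50.7 and 51.1 CPM in Mael-/-. Its footprints were at 79.4, 53.7 and 47.4 CPM in Mael+/- and at 43.0, 54.3 and 45.6 CPM in Mael-/-. Both assays overlapped, by a single pair of libraries in RNA. Cpeb1 RNA was at 69.9, 51.0 and 40.3 CPM in Mael+/- and at 51.8, 49.3 and 43.8 CPM in Mael-/-. Cpeb1 footprints were at 74.2, 68.7 and 57.4 CPM in heterozygotes and at 59.9, 63.0 and 57.2 CPM in mutants, again overlapping.

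Over the 6 RNA libraries Pum2, Celf1 and Fxr1 varied least of the 9 relative to their means. Pum2 RNA was at 249, 181 and 209 CPM in Mael+/- and 229, 204 and 184 CPM in Mael-/-, and its footprints lay between 228 and 259 CPM in all 6 extracts. Celf1 lay between 223 and 270 RNA CPM and between 184 and 217 footprint CPM. Fxr1 lay between 219 and 278 RNA CPM and between 247 and 346 footprint CPM, the highest value of each gene being that of the first heterozygous extract. Fxr1 exons share 91 bases with Dnajc19 on the opposite strand, and the strand setting of the counting is not given in the sources used here. Elavl1 RNA was at 207, 151 and 153 CPM in Mael+/- and at 139, 146 and 135 CPM in Mael-/-, without overlap. Its footprints were at 243, 179 and 220 CPM in heterozygotes and at 194, 201 and 185 CPM in mutants, which overlapped.

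**Figure D1:**
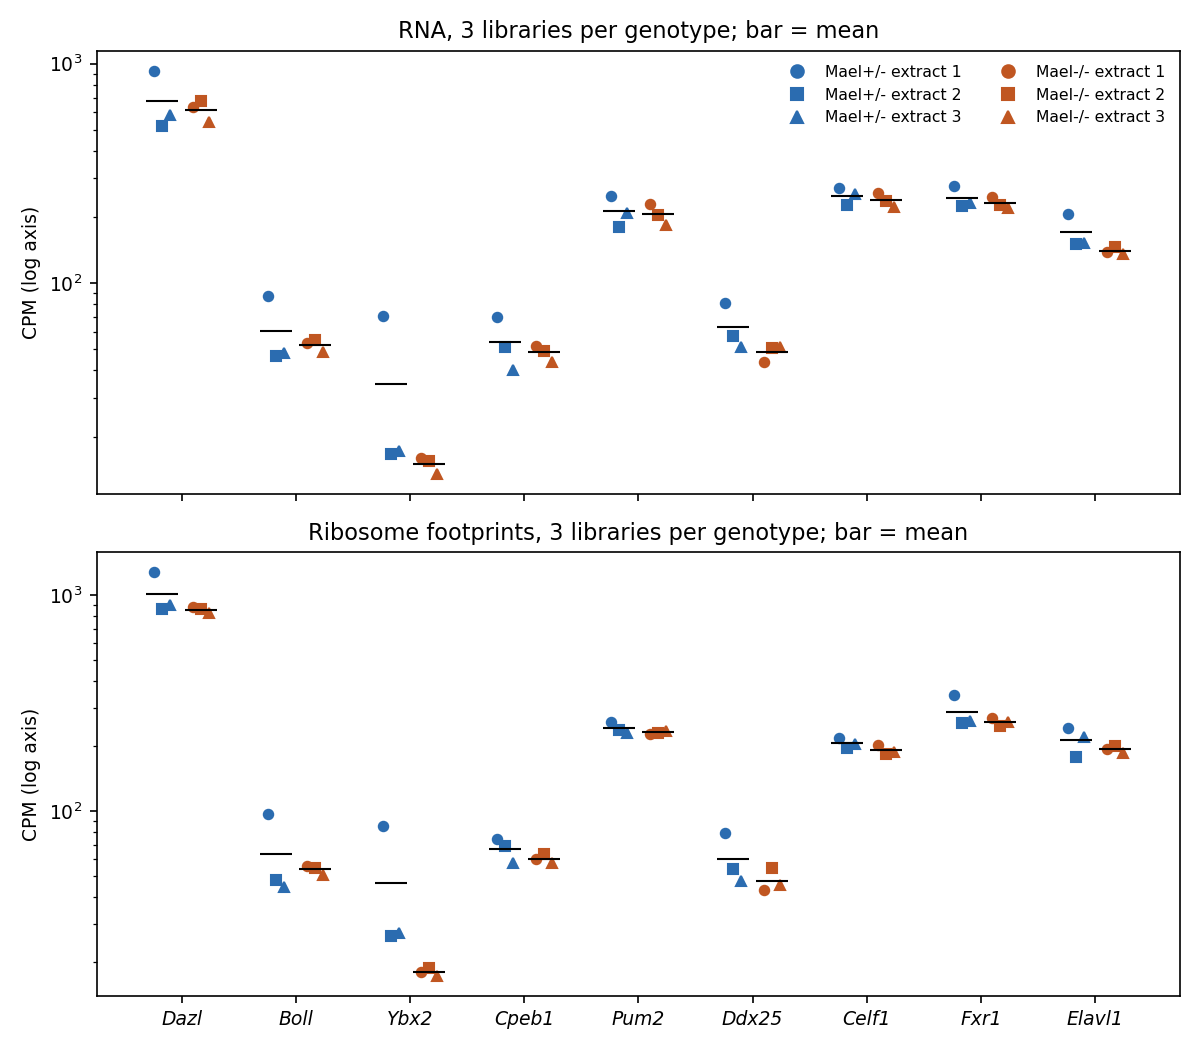
CPM (log axis) of the 9 members in each RNA library (top) and ribosome footprint library (bottom), with 3 extracts per genotype marked by shape and genotype by colour; bars are group means. The first heterozygous extract (blue circle) is the highest point of every member in both panels, and for Ybx2 it stands at 70.7 RNA CPM against 13.5 to 17.2 in the other libraries.

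All 9 members were highest in the first heterozygous extract in both assays, beside 27.5% of all genes tested in RNA and 26.5% in footprints. Its level over the mean of the other 5 libraries was 4.49 for Ybx2 RNA, 1.74 for Boll, 1.56 for Dazl, 1.48 for Cpeb1, 1.43 for Elavl1, 1.21 for Fxr1 and 1.13 for Celf1. Ddx25 had 81.3 CPM there against a mean of 50.8, and Pum2 249 against 201. The median of this ratio over all genes tested was 0.99. Among genes tested the Ybx2 ratio lay at percentile 99.2 in RNA and 99.5 in footprints, where it was 3.97. Footprint ratios ran from 1.11 for Pum2 and Celf1 to 1.92 for Boll among the other members. Ybx2, Boll and Ddx25 had the highest ratios of the 9 in both assays, and Celf1 the lowest, level with Pum2 in footprints. The excess went with that of the pachytene and early meiotic markers given above, and their part in it was not tested.

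**Figure D2:**
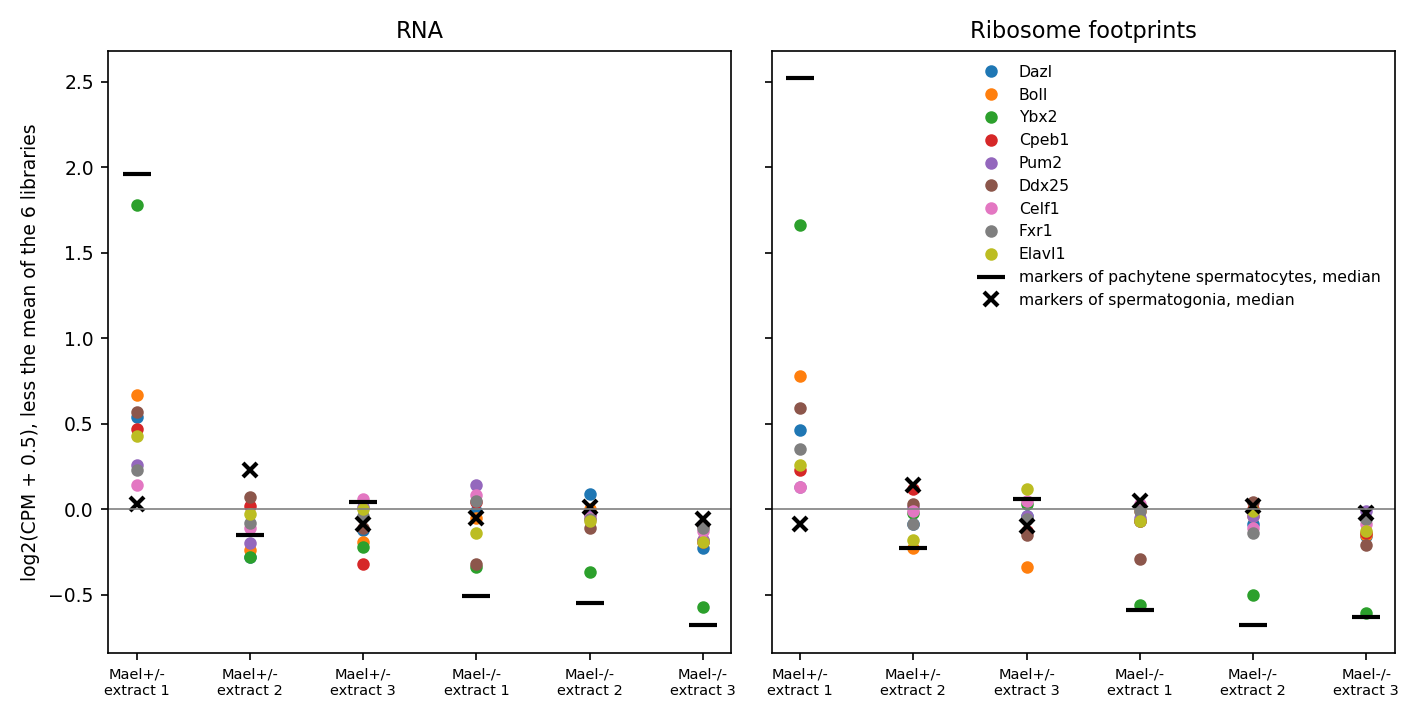
Level of each member in each extract as log2(CPM + 0.5) less the mean of the 6 libraries of the assay, for RNA (left) and footprints (right). Black bars and crosses are the medians of the pachytene spermatocyte and spermatogonial markers with a mean of at least 10 counts. In the first heterozygous extract the pachytene median is at 1.96 in RNA and 2.52 in footprints and every member is above 0, while the spermatogonial median is at 0.03 and -0.09.

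The comparison of Mael-/- with Mael+/- called none of the 9 members in RNA. The test was edgeR's quasi-likelihood test, with p adjusted by Benjamini-Hochberg over all genes and a call set at less than 0.05. The background was 0.116% of 14685 genes called. DESeq2 also called 0 of the 9. All 9 members had lower fitted RNA in the mutant, with a median log2 fold change of -0.15 (range -1.22 to -0.05), beside 50.4% of all genes tested and a median of 0.00. That count rested on the first heterozygous extract: without it, 4 of 9 were lower. The members at an unadjusted p under 0.05, which 5.4% of genes passed, were Ybx2, Ddx25 and Elavl1, with p of 0.031, 0.043 and 0.048 (edgeR). Without the first heterozygous extract none of the 3 passed it, with p of 0.17, 0.17 and 0.20 (edgeR). Mael-/- libraries lay wholly below Mael+/- for 2 of 9 members, Ybx2 and Elavl1, beside 5.03% of genes, and wholly above for none, beside 5.23%.

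In footprints the call was likewise 0 of 9 by edgeR and by DESeq2, with a background of 0.0593% of 13500 genes. All 9 had lower fitted footprints in the mutant, with a median log2 fold change of -0.15 (range -1.37 to -0.07), beside 52.5% of genes and a median of -0.01. Without the first heterozygous extract 8 of 9 were lower, but those other than Ybx2 lay only between -0.09 and 0.00. The median log2 fold change over all genes in that fit was -0.005. At an unadjusted p under 0.05, which 4.33% of genes passed, only Ybx2 was below the threshold. Mael-/- libraries lay wholly below Mael+/- for 1 of 9 members, Ybx2, beside 4.85% of genes, and wholly above for none, beside 4.24%.

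Ybx2 had the largest fitted differences of the 9. Its RNA log2 fold change was -1.22 ± 0.49 (SE), with a 95% interval from -2.31 to -0.13, an unadjusted p of 0.031 and an adjusted p of 0.89 (edgeR). Without the first heterozygous extract it was -0.19 ± 0.13, a ratio of 0.88. For Ybx2 footprints the log2 fold change was -1.37 ± 0.39, with an interval from -2.22 to -0.52, an unadjusted p of 0.0048 and an adjusted p of 0.78 (edgeR). Leaving out the first heterozygous extract gave -0.58 ± 0.12, a ratio of 0.67, with an unadjusted p of 0.00047 and an adjusted p of 0.15 (edgeR), the lowest of the 11 alternatives. Pachytene markers also differed among the 5 remaining extracts. Their footprint median, as log2 against the mean of the 6 footprint libraries, was -0.23 and 0.06 in heterozygous extracts 2 and 3 and -0.68 to -0.59 in Mael-/-, and their part in the Ybx2 difference was not tested.

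For the other members the fitted differences were small. The RNA log2 fold change was -0.38 ± 0.16 for Ddx25 and -0.28 ± 0.12 for Elavl1, with adjusted p = 0.91 and 0.92 (edgeR), and became -0.15 ± 0.11 and -0.12 ± 0.09 without the first heterozygous extract. Dazl RNA was at -0.13 ± 0.19 and Boll RNA at -0.22 ± 0.22, and both turned to 0.16 ± 0.11 and 0.14 ± 0.10 without that extract. Cpeb1 RNA was at -0.15 ± 0.18, Fxr1 at -0.08 ± 0.10, Celf1 at -0.06 ± 0.10 and Pum2 at -0.05 ± 0.13. Without the first heterozygous extract these became 0.08 ± 0.12, 0.02 ± 0.09, -0.01 ± 0.10 and 0.07 ± 0.11, so that Cpeb1, Fxr1 and Pum2 changed sign. The 95% intervals of Celf1, Fxr1 and Pum2 RNA over all extracts lay between -0.34 and 0.23. Boll footprints moved from -0.23 ± 0.25 to 0.23 ± 0.10 when the first heterozygous extract was left out, with an unadjusted p of 0.048 and an adjusted p of 0.80 (edgeR), and the lowest adjusted p of the 11 alternatives was 0.59. The footprint log2 fold change of Ddx25 went from -0.34 ± 0.18 to -0.09 ± 0.12 and that of Dazl from -0.24 ± 0.14 to -0.04 ± 0.09. The footprints of Fxr1, Cpeb1, Elavl1, Celf1 and Pum2 lay between -0.15 and -0.07 with all extracts and between -0.08 and 0.00 without that one.

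**Figure D3:**
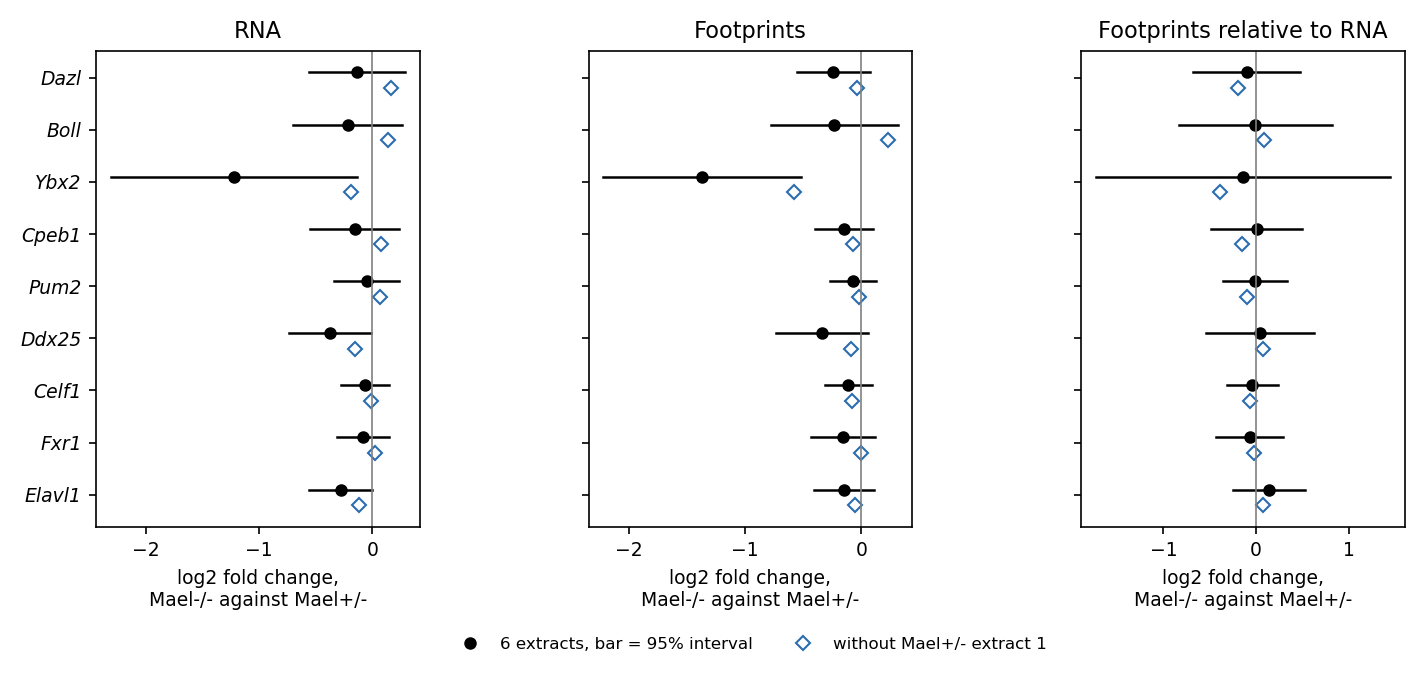
Fitted log2 fold change of each member, Mael-/- against Mael+/-, for RNA, footprints and footprints relative to RNA (the interaction of genotype and assay). Black points with bars are the values and 95% intervals over all 6 extracts, and open diamonds are the values without the first heterozygous extract. Ybx2 moves from -1.22 to -0.19 in RNA, and its footprint value moves from -1.37 to -0.58, and the intervals relative to RNA all include 0.

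Translation efficiency asks whether footprints changed by more or less than RNA. It was tested as the interaction of genotype and assay over the 12 libraries, and 0 of 9 members were called, with 0% of 13448 genes called by edgeR and none of the 9 by DESeq2. At an unadjusted p under 0.05 (edgeR) no member passed, but neither did most genes, with 0.394% passing. A fit that passes so few genes says little about any single member. The log2 changes of the members ranged from -0.14 for Ybx2 to 0.14 for Elavl1, with 6 of 9 below 0 beside 50.8% of genes. RNA and footprint libraries of an extract came from the same lysate. With extracts paired, the call was again 0 of 9 with 0% of genes called, and no member passed the unadjusted threshold that 2.07% of genes passed. Pairing narrowed the intervals: that of Ybx2 went from -1.73 to 1.44 unpaired to -0.52 to 0.06 around -0.23 paired. That of Dazl paired was -0.34 to 0.10, that of Boll -0.20 to 0.24, and that of Elavl1 -0.08 to 0.34. Without the first heterozygous extract the unpaired value of Ybx2 was -0.39 ± 0.17, with an unadjusted p of 0.032 that did not hold after adjustment, and the other members ranged from -0.20 for Dazl to 0.08 for Boll. The paired values without that extract, an alternative chosen after seeing the data, were -0.40 for Ybx2, -0.20 for Dazl, 0.08 for Boll and 0.07 for Elavl1.

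The members differed far more among themselves in footprints per RNA than between genotypes. This measure is the log2 of footprint CPM per coding kilobase over RNA CPM per exon kilobase in an extract, less the median over 13395 genes, and is a description without a test. Elavl1 was highest at 2.07 ± 0.17 in Mael+/- and 2.21 ± 0.01 in Mael-/- (SD, n = 3 each), at percentile 98.3 of genes. Dazl was at 1.45 ± 0.14 and 1.33 ± 0.13 (percentile 93.6), Celf1 at 1.21 ± 0.07 and 1.17 ± 0.06 (percentile 91.2) and Boll at 1.04 ± 0.13 and 1.06 ± 0.05 (percentile 88.9). These 4, like Cpeb1 and Pum2, carried more footprints per RNA than the median gene in every extract. Cpeb1 at 0.46 ± 0.23 and 0.44 ± 0.10 and Pum2 at 0.38 ± 0.18 and 0.36 ± 0.19 were moderately above it. Ybx2 lay near the median gene, at 0.25 ± 0.23 in Mael+/- and -0.01 ± 0.10 in Mael-/-. Fxr1 was below it at -0.46 ± 0.07 and -0.52 ± 0.08 (percentile 22.4), and Ddx25 was the lowest at -0.76 ± 0.03 and -0.71 ± 0.12 (percentile 12.4). The genotypes overlapped for all 9 members, but for Ybx2 and Cpeb1 the overlap rested on the first heterozygous extract. Ybx2 was at -0.01 there, at 0.38 and 0.39 in the other heterozygotes and at -0.10 to 0.10 in Mael-/-. Cpeb1 was at 0.20 there, at 0.55 and 0.64 in the other heterozygotes and at 0.33 to 0.52 in Mael-/-. Without that extract Cpeb1 was thus split by as little as 0.55 against 0.52. This leaves fewer heterozygotes than mutants, and the share of all genes split this way was not computed.

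The lengths are those of all annotated exons of a gene together, 6030 bases for Elavl1 of which 981 are coding, so a gene whose long 3′ UTR is not used in testis would have its RNA per kilobase understated. Without division by length Elavl1 was at 0.49, Dazl at 0.63, Celf1 at -0.21, Boll at 0.12, Fxr1 at 0.28 and Ddx25 at 0.03, so that the order of the members depends on the lengths and Celf1, Fxr1 and Ddx25 change sides of the median gene.

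**Figure D4:**
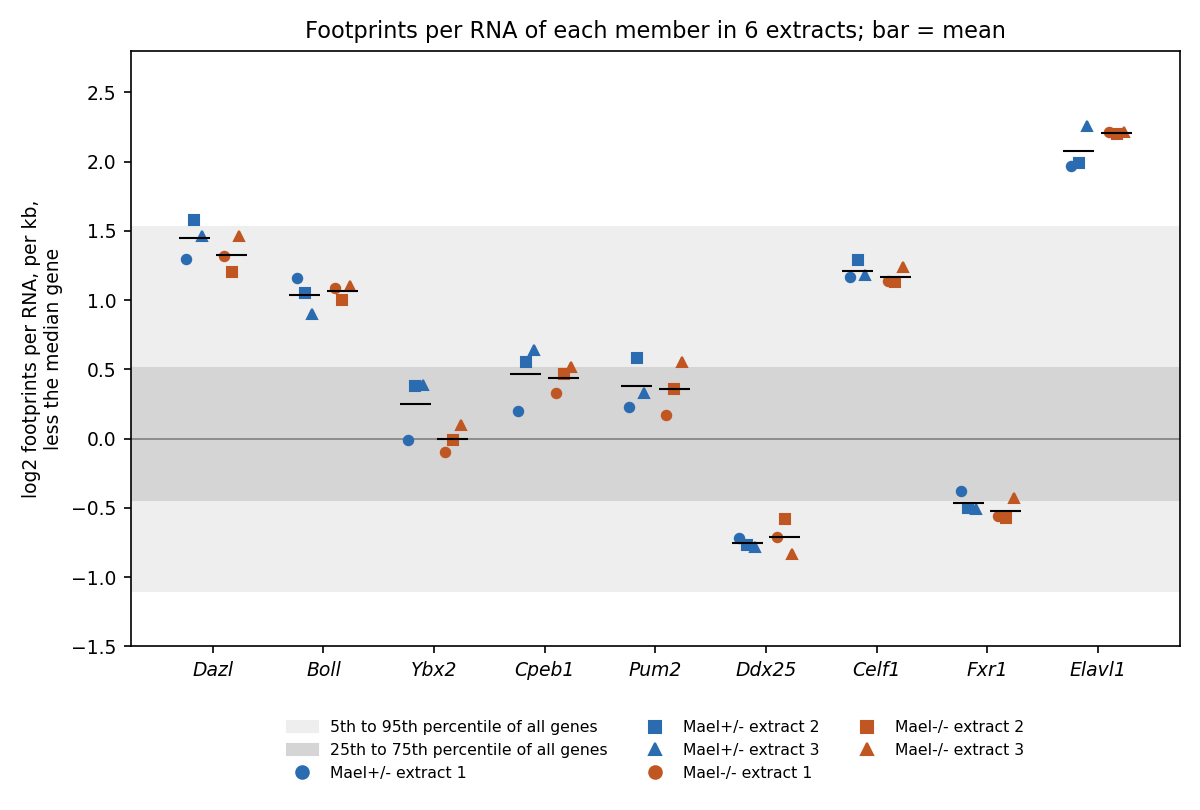
Footprints per RNA of each member in each of the 6 extracts, as log2 per kilobase less the median gene, with group means as bars. Shaded bands span percentiles 5 to 95 (from -1.10 to 1.53) and 25 to 75 (from -0.44 to 0.51) of 13395 genes. Elavl1 lies above the wider band in every extract and Ddx25 lies below the narrower band. The genotypes overlap for every member, for Ybx2 and Cpeb1 through the first heterozygous extract. The share of all genes split without that extract was not computed.

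For each member the 3 genes with the most similar pattern were taken from 11235 genes that averaged 50 counts or more in both assays, by Pearson's r of log2(CPM + 0.5) centred within assay over the 12 libraries. The 12 points come from 6 extracts and share depth and normalization, and r is given as a description. Ybx2 was closest to Fam216a, 1700003E16Rik and Piwil1, all at r = 0.99, and Piwil1, a pachytene piRNA protein, is on the pachytene marker list. Ddx25 was closest to Wdr31 (0.99), Spo11 and Rimklb (both 0.98), and Dazl to Hyls1, Hormad1 (both 0.99) and Rab8b (0.98). Spo11, the enzyme that makes meiotic double-strand breaks, and Hormad1, a protein of the meiotic chromosome axis, are early meiotic prophase markers. Without the first heterozygous extract, over 10 libraries, r was 0.86 for Piwil1 with Ybx2, 0.86 for Spo11 with Ddx25 and 0.96 for Hormad1 with Dazl.

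Boll was closest to Fra10ac1, Rbl1 and Nup205 (all 0.98), with r of 0.87, 0.80 and 0.76 over the 10 libraries. Pum2 was closest to Cnot6l (0.99), Rnpc3 and Zfp280d (both 0.98), and these kept 0.99, 0.96 and 0.99 without the first heterozygous extract. Cnot6l encodes a deadenylase subunit of the CCR4-NOT complex. Among the genes closest to Cpeb1 were Wdr62 (0.96) and H1fx (0.95), and Celf1 was closest to Ube2b (0.92), Cggbp1 and Appl1 (both 0.91). Fxr1 was closest to Ufl1, Rad18 and Skiv2l2 (all 0.97) and Elavl1 to Ccdc173 (0.97), Ccdc117 and Meig1 (both 0.96). Over the 10 libraries r was 0.94 and 0.85 for the genes named with Cpeb1, 0.87, 0.90 and 0.85 for those with Celf1, 0.86, 0.78 and 0.71 for those with Fxr1 and 0.83, 0.86 and 0.78 for those with Elavl1. Over the 36 pairs of members the median r was 0.77 (range 0.43 to 0.93) with all libraries and 0.19 (range -0.82 to 0.83) without the first heterozygous extract.

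Beyond the members, 67 other genes of germ cell translation were listed: paralogs of the members, cofactors at the mRNA ends, other RNA-binding regulators, and target mRNAs. Of the 63 tested in RNA, edgeR called 0 in either direction, and of the 58 tested in footprints and in translation efficiency it also called 0. DESeq2 called none of them. In RNA 47 of 63 had lower fitted values in the mutant and 16 higher, beside 50.4% of all genes tested lower. Their median log2 fold change was -0.10. In footprints 46 of 58 were lower, beside 52.5% of genes, with a median of -0.07. These values include the first heterozygous extract, on which the count of members with lower RNA rested. At an unadjusted p under 0.05 (edgeR) there were 9 in RNA and 5 in footprints, all with lower values in Mael-/-. Of all genes tested, 5.4% and 4.33% passed it. In translation efficiency the median was 0.03 and none passed that threshold, which 0.394% of genes passed.

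Among the 18 paralogs, 12 of 18 were lower in RNA. Ybx1, a broadly expressed Y-box protein, was at 511, 465 and 443 RNA CPM in Mael+/- and 348, 400 and 398 CPM in Mael-/-. Its log2 fold change was -0.31 ± 0.09, with an adjusted p of 0.76 (edgeR). Ybx3, the third Y-box protein, was at 141, 116 and 118 CPM in Mael+/- and at 96.1, 105 and 112 CPM in Mael-/-, with -0.26 ± 0.10 and an adjusted p of 0.89 (edgeR). For both genes Mael-/- RNA lay wholly below Mael+/-, as it did for 5.03% of genes. For Ybx1, unlike Ybx2, the first heterozygous extract lay close to the other heterozygotes. Other paralogs named by rule had RNA log2 fold changes of -0.48 ± 0.30 for Cpeb2, -0.09 ± 0.19 for Cpeb4, -0.03 ± 0.11 for Celf2, 0.00 ± 0.19 for Fmr1, 0.01 ± 0.15 for Elavl2 and 0.09 ± 0.08 for Fxr2. These fits include the first heterozygous extract, where Cpeb2 RNA was at 39.5 CPM against 14.3 to 22.2 CPM in the other libraries.

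Of 21 cofactors, 16 were lower in RNA. Nanos3 and Nanos2, the Pumilio partners of spermatogonia, were low: Nanos3 was at 4.33 to 6.95 RNA CPM in every library, and Nanos2 at 0.217 to 1.09 CPM. Papolb, a testis poly(A) polymerase, was at 10.7, 3.77 and 4.95 RNA CPM in Mael+/- and at 5.02, 3.57 and 3.25 CPM in Mael-/-, with the highest value again in the first heterozygous extract. Of 19 other regulators, 16 were lower in RNA. Meioc and Ythdc2, partners in the entry into meiosis, went the other way: Meioc was at 346, 166 and 178 RNA CPM in Mael+/- and 276, 272 and 194 CPM in Mael-/-, and Ythdc2 at 152, 93.0 and 96.9 CPM and 125, 128 and 108 CPM. Outside the first heterozygous extract each Mael-/- library exceeded both heterozygotes for these genes, and the share of all genes split this way was not computed. The log2 fold changes of Meioc and Ythdc2 over all extracts were 0.11 ± 0.26 and 0.07 ± 0.17, and neither was called.

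The 9 listed target mRNAs, transcripts known to be bound or translated with the help of Dazl, Cpeb1, Ybx2 or Ddx25, split by stage. The meiotic targets were well expressed. Sycp3, of the synaptonemal complex, was at 431, 127 and 167 RNA CPM in Mael+/- and 172, 209 and 131 CPM in Mael-/-, and at 878, 266 and 336 footprint CPM against 288, 290 and 288 CPM. Sycp1, of the same complex, was at 605, 157 and 262 RNA CPM against 302, 296 and 171 CPM. Ddx4, the germ cell helicase Vasa, was at 283, 170 and 162 RNA CPM against 168, 174 and 153 CPM. All 3 were highest in the first heterozygous extract. Their log2 changes in translation efficiency with extracts paired were -0.25 ± 0.12 for Sycp3, -0.15 ± 0.17 for Sycp1 and 0.09 ± 0.10 for Ddx4, and none was called. Tex19.1 was instead lowest there, at 78.6 RNA CPM against 80.1 to 106 CPM in the other libraries. Of the spermatid targets of Ybx2, Prm1 and Tnp2 had 0 counts, Prm2 had 1 count in 12 libraries, and Tnp1 stayed at or below 0.949 CPM. Pgk2 reached 1.34 RNA CPM in the first heterozygous extract and at most 0.378 CPM elsewhere in RNA.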

How the data were processed

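The authors clipped and trimmed footprint reads, removed those matching ribosomal DNA with Bowtie 1.2.2, aligned RNA and remaining footprint reads to mm10 with STAR 2.6.0c and deposited raw counts per gene from featureCounts (Subread 1.6.4), over whole mRNAs for RNA and coding sequence for footprints. The annotation, strand setting and treatment of duplicates are not given in the sources used here. Their DESeq2 1.24.0 comparison tables (fold changes and p-values) were not used. All 12 libraries entered, grouped by genotype and assay in the labels.

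Gene rows were scaled by TMM within assay, filtered with filterByExpr and tested with edgeR 4.0.16 (limma 3.58.1, R 4.3.3) against adjusted p under 0.05 over all genes, after checks on simulated data. DESeq2 1.42.0, other scalings, filters, left-out extracts and a replicate block were alternatives. CPM uses TMM-scaled library sizes. Separate animals per extract are not stated, so p-values measure the spread between extracts. RNA and footprint libraries of an extract came from 1 lysate, and their deviations from group means correlated at r of 0.81, 0.67 and 0.73 in Mael+/- and 0.27, 0.29 and 0.28 in Mael-/- over 11235 genes, so translation efficiency, fitted without the pairing, is also given with extracts paired. RefSeq GRCm38.p6 lengths were matched by symbol (19295 of 20620 rows current, 1192 older, 133 unmatched). Members and lists were chosen with earlier results of these data known. Genes were named by rule: all members, a fixed set of listed genes whether called or not, and the 3 genes most like each member. Some genes that this rule names are not reported here.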

Additional observations from a re-analysis of the deposited data

How the results depend on the processing

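The number of members called and of listed genes called stayed at 0 in RNA, footprints and translation efficiency under DESeq2, median-of-ratios scaling, no filter, a filter at a mean of 50 counts, each left-out extract and the replicate block. In RNA the replicate block moved the calls over all genes from 17 to 50, and that in footprints moved them from 8 to 23. Libraries with equal replicate numbers were also correlated across the genotypes. For RNA, r was 0.29 at number 1, -0.041 at number 2 and 0.2 at number 3. For footprints, r was 0.089, 0.29 and 0.064 in that order. Mael-/- RNA and footprints from 1 lysate reached only 0.27 to 0.29, so r of this size cannot decide whether equal numbers pair the samples. DESeq2 called 58 and 21 genes, and the filter at 50 counts left 4 and 1. Calls over all genes with an extract left out ranged from 2 to 64 for RNA and between 2 and 17 for footprints. The count of members with lower RNA ranged from 4 to 9 over left-out extracts, the lowest without the first heterozygous extract. Of 99 member values under alternatives, 93 kept their direction in RNA and 98 in footprints. Those that turned did so with an extract left out: ranges were -0.29 to 0.16 for Dazl, -0.38 to 0.14 for Boll, -0.32 to 0.08 for Cpeb1, -0.16 to 0.07 for Pum2 and -0.14 to 0.02 for Fxr1 in RNA, and -0.44 to 0.23 for Boll footprints. In translation efficiency 132 of 153 kept it. The replicate block by extract gave 0.02 for Boll and -0.02 for Cpeb1, and over left-out extracts, with and without the block (the former added after seeing the data), Boll ranged from -0.07 to 0.08, Cpeb1 from -0.16 to 0.07, Pum2 from -0.11 to 0.08 and Ddx25 from -0.03 to 0.11. Footprints per RNA moved by over 1 SD for 7 of 9 members without length scaling (Ybx2 to 0.49) and for none under the other alternatives.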

Other observations

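Some listed genes, chosen after their values were seen, set the first heterozygous extract apart as strongly as the members did. Msi2, a Musashi regulator of translation, was at 27.3 RNA CPM there against 121 to 222 CPM in the other RNA libraries, and at 51.1 footprint CPM against 90.9 to 124 CPM. Pabpc1, the main cytoplasmic poly(A)-binding protein, was at 530 RNA CPM there against 202 to 284 CPM elsewhere, and its footprints were at 554 CPM against 350 to 417 CPM. Rbm46, which is required for meiotic entry of germ cells, was at 120 RNA CPM against 55.9 to 72.1 CPM, and at 132 footprint CPM against 66.7 to 79.1 CPM. None of the 3 was called between the genotypes by edgeR, where the adjusted p was 0.89 or higher in every comparison.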
